A study of Mus musculus with 8 samples.

Results

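The 36 genes described here mark the cells of blood vessels in the brain: 28 are endothelial genes and 8 are mural genes, 5 of them of pericytes and 3 of smooth muscle cells. They were taken by name from a list of known vessel markers, through the gene name that the array files give each probe, and all 36 were found. The array held 44 probes for them, of which 42 were bright enough to be tested, and every gene had at least 1 tested probe, among 16593 tested genes in all and 21043 genes named on the array.

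The tissue was the hypothalamus of 8 male C3H/HeN mice, with 1 Agilent array per mouse. The 4 mice labelled Stress had gone through maternal separation combined with unpredictable stress of the dam from postnatal day 2 to 14 (MS), and the 4 mice labelled Ctrl were undisturbed controls. All were weaned on postnatal day 21 and housed with mice of the same sex and condition. Both groups were given an operant task for palatable food and deprived of food before the brain was taken. The paper reports more lever presses for this food in male C3H/HeN mice after MS. It found this in random-ratio and progressive-ratio tests of mice fed freely, and no effect of MS in fixed-ratio, devaluation or concurrent choice tests. It names unequal exposure to the food, and an effect of fasting that differs after MS, as possible parts of its nucleus accumbens results. For each mouse, 200 ng of RNA was labelled with the dye Cy3. The mice are named by their labels, as Ctrl 6.2, 8.2, 8.4 and 8.5 and Stress 5.3, 7.1, 7.2 and 7.6. No number before the dot occurs in both groups, and the sources used here do not say what it stands for. The labels do not name litters, so p-values measure only the spread between these mice.

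Endothelial cells of the brain form the blood-brain barrier: tight junctions seal the gaps between them, carriers bring nutrients in and efflux pumps return drugs and toxins to the blood. Pericytes lie on capillaries and smooth muscle cells wrap arterioles, and both are grouped as mural cells. In the hypothalamus, vessels of the median eminence are leaky and carry releasing hormones to the pituitary, while vessels of the neighboring nuclei keep a tight barrier. In RNA of whole tissue, fewer vessel cells and less RNA per vessel cell cannot be told apart.

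All values are log2 signals relative to the 75th percentile of the array, so that 1 unit is a doubling, and a level can be compared between mice but not between genes. The 75th percentile of the signal ranged from 567.1 in Stress 7.6 to 1018 in Stress 7.2, and 34079 to 39601 probes per array were well above background. No spot was saturated. The brightest probe of 35 of the 36 genes was well above background on all 8 arrays. The exception was *Erg*, an ETS transcription factor of endothelium, which was above background on 6. The defining markers of endothelium (*Cldn5*, *Pecam1*, *Cdh5*, *Flt1*, *Kdr*, *Tie1* and *Slco1a4*), pericytes (*Pdgfrb*, *Rgs5*, *Abcc9* and *Vtn*) and smooth muscle (*Acta2*, *Tagln* and *Myh11*) were thus all measured in every mouse.

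No vessel gene passed the test between MS and control mice. Of the 42 tested probes, 0 had an adjusted p under 0.05 in limma with Benjamini-Hochberg adjustment over all 37314 tested probes, and the share over all tested probes was 0%. The smallest adjusted p of a vessel gene was 0.989. At an unadjusted p under 0.05, 2 of the 42 probes were lower in MS mice and 0 were higher, against 3.40% of all tested probes in either direction. The same 2 probes, of *Sox18* and *Emcn*, were the ones whose groups did not overlap, against 2.03% of all tested probes without overlap and 1.24% without overlap and lower in MS mice. A count of 2 in 42 is too small to be read as a difference from these shares.

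The log2 fold changes of the 36 genes, as MS minus control, were small. Scaled to the 75th percentile, they ranged from -0.29 for *Myh11* to 0.11 for *Abcc9*, with 16 above 0 and 20 below, or 18 on each side when arrays were scaled to their median. Their median was -0.023, against 0.008 over all 16593 genes, and -0.002 against 0.028 with median scaling. The median of the 28 endothelial genes was -0.016, with 13 above 0 and 15 below. With median scaling, which also raised the median over all genes, it was 0.005, with 15 above 0 and 13 below. The median of the 8 mural genes was -0.047, with 3 above and 5 below. Neither sign held when single mice were left out, with medians from -0.075 to 0.020 for the endothelial and from -0.136 to 0.054 for the mural genes. For 33 of the 36 genes (91.7%) the 95% confidence interval lay within a 1.5-fold change in either direction, as it did for 89.2% of all genes. For all 36 it lay within a 2-fold change. The exceptions to the narrower bound were *Vwf*, *Anpep* and *Myh11*.

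**Figure D1:**
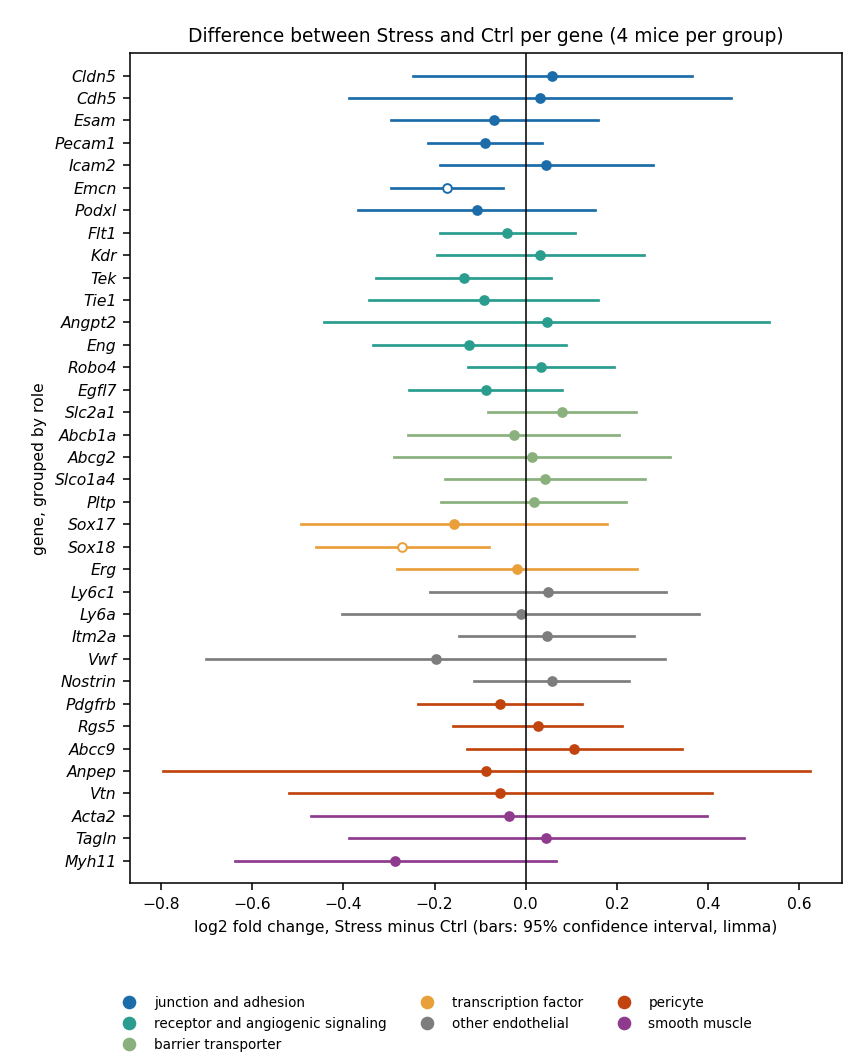
The log2 fold change of each gene, MS (Stress) minus control (Ctrl), is plotted on the horizontal axis with its 95% confidence interval from limma, with 1 row per gene and colors for the roles. Open points mark *Emcn* and *Sox18*, the 2 genes whose groups did not overlap, and the changes lie between -0.29 and 0.11.

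The junction and adhesion genes held 1 of the 2 separated members. *Emcn* encodes endomucin, a sialomucin on the surface of venous and capillary endothelium that hinders the adhesion of leukocytes. In control mice *Emcn* was at -2.11 in 6.2, -2.09 in 8.2, -1.97 in 8.4 and -2.03 in 8.5. In MS mice it was at -2.24 in 5.3, -2.20 in 7.1, -2.21 in 7.2 and -2.25 in 7.6. All MS mice lay below all control mice, although the gap between the nearest mice was small. The log2 fold change of *Emcn* was -0.17 (SE 0.05), with an unadjusted p of 0.012 and an adjusted p of 0.989 in limma, and -0.09 with normexp background correction. An exact two-sided permutation test of 4 against 4 mice gave p = 0.0286, the smallest that this design allows. Any gene whose groups do not overlap gets this value, so it adds nothing to the lack of overlap.

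*Cldn5* encodes claudin-5, the main sealing protein of barrier tight junctions. It was at 2.57 in Ctrl 6.2, 2.34 in 8.2, 2.41 in 8.4 and 2.33 in 8.5. In MS mice *Cldn5* was at 2.54 in 5.3, 2.33 in 7.1, 2.19 in 7.2 and 2.82 in 7.6. The groups overlapped, and both the lowest and the highest value came from MS mice. The log2 fold change was 0.06 (SE 0.13), with an interval in fold from 0.842 to 1.29.

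*Pecam1*, an adhesion molecule of the junctions of all endothelium, was among the genes with the narrowest spread. It was at -2.13, -2.11, -2.03 and -2.01 in Ctrl 6.2, 8.2, 8.4 and 8.5. *Pecam1* was at -2.19, -2.11, -2.19 and -2.15 in Stress 5.3, 7.1, 7.2 and 7.6. Stress 7.1 lay among the controls and the other MS mice below every control (log2 fold change -0.09, SE 0.05, exact two-sided permutation p = 0.0857). The other junction and adhesion genes were *Cdh5* (VE-cadherin of adherens junctions), *Esam* and *Icam2* (adhesion molecules of the endothelial surface) and *Podxl* (a sialomucin of the luminal surface), with log2 fold changes from -0.11 to 0.05.

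Of the 8 receptors and angiogenic signaling genes, 3 were above 0 and 5 below, and the median of their log2 fold changes was -0.064. On this scale the largest change was that of *Tek*, which encodes TIE2, the receptor of the angiopoietins that keeps vessels quiescent. *Tek* was at -3.01, -2.85, -2.82 and -2.89 in Ctrl 6.2, 8.2, 8.4 and 8.5. In Stress 5.3, 7.1, 7.2 and 7.6 it was at -2.84, -3.10, -3.01 and -3.16. Stress 5.3 lay among the controls and the other MS mice below every control, though Stress 7.2 only just (log2 fold change -0.14, SE 0.08, exact two-sided permutation p = 0.171). With normexp background correction *Tek* differed by -0.045, less than *Eng* (-0.12) and *Egfl7* (-0.097). The related receptor *Tie1* differed by -0.09 (SE 0.11) and the ligand *Angpt2*, which antagonizes TIE2 signaling in many settings, by 0.05 (SE 0.21).

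*Kdr* encodes VEGFR2, the main receptor through which VEGF-A drives vessel growth. Its brighter probe was at 2.05, 1.95, 2.02 and 1.97 in Ctrl 6.2, 8.2, 8.4 and 8.5. In Stress 5.3, 7.1, 7.2 and 7.6 it was at 2.01, 1.98, 1.83 and 2.30. The control mice lay close together, and MS mice held both the lowest and the highest value (log2 fold change 0.03, SE 0.10). The dimmer *Kdr* probe, printed as 10 spots against 1 for the brighter, differed by -0.17 (SE 0.08). On it Stress 7.1, 7.2 and 7.6, at -0.038, -0.019 and 0.0063, lay below every control (0.15 to 0.27). Stress 5.3, at 0.29, lay above every control. The 2 probes did not move together over the mice (r = -0.041). The direction of *Kdr* thus depends on the probe. *Flt1*, which encodes the VEGF receptor VEGFR1, *Eng*, a co-receptor of BMP9 signaling, *Robo4*, a receptor that stabilizes endothelium, and *Egfl7*, a secreted protein of endothelium, had log2 fold changes from -0.12 to 0.03.

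The 5 barrier transporters had log2 fold changes from -0.03 to 0.08, with 4 above 0 and 1 below, or 2 above and 3 below with quantile normalization, normexp background correction or the authors' table. The largest was that of *Slc2a1*, which encodes GLUT1, the carrier that brings glucose across the barrier. *Slc2a1* was at 4.04, 3.97, 4.08 and 4.07 in Ctrl 6.2, 8.2, 8.4 and 8.5. In Stress 5.3, 7.1, 7.2 and 7.6 it was at 4.05, 3.99, 4.19 and 4.25. Stress 7.2 and 7.6 lay above every control and the other MS mice among them (log2 fold change 0.08, SE 0.07, with an interval in fold from 0.944 to 1.18). The efflux pumps *Abcb1a* (P-glycoprotein) and *Abcg2* (BCRP), the organic anion carrier *Slco1a4* and the phospholipid transfer protein *Pltp* had intervals that all lay within a 1.5-fold change.

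The 3 endothelial transcription factors had log2 fold changes of -0.27 for *Sox18*, -0.16 for *Sox17* and -0.02 for *Erg*, and that of *Erg* was above 0 in 10 of the 21 alternatives that measured it. *Sox18* and *Sox17* are SOXF factors, which act in arterial and lymphatic specification and in the maturation of vessels. *Sox18* was at -1.05 in Ctrl 6.2, -0.97 in 8.2, -0.70 in 8.4 and -0.87 in 8.5. In MS mice *Sox18* was at -1.18 in 5.3, -1.10 in 7.1, -1.15 in 7.2 and -1.24 in 7.6. All MS mice lay below all controls, and the 4 MS mice lay closer together (SD 0.06) than the 4 controls (SD 0.15). The log2 fold change was -0.27 (SE 0.08), with an interval in fold from 0.727 to 0.945, an unadjusted p of 0.0107 and an adjusted p of 0.989 in limma. The exact two-sided permutation test gave p = 0.0286, again the smallest possible and again fixed by the lack of overlap.

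In the 2 rows of the slide, which held 2 mice of each group, *Sox18* differed by -0.33 and -0.21 and *Emcn* by -0.19 and -0.15. Since the groups did not overlap in either gene, both rows had to show the same sign. The *Sox17* probes differed by -0.16 (SE 0.15) and -0.22 (SE 0.10), with groups that overlapped. On the brighter of them, Stress 7.6 was lowest at -1.37 and Ctrl 8.4 highest at -0.62.

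**Figure D2:**
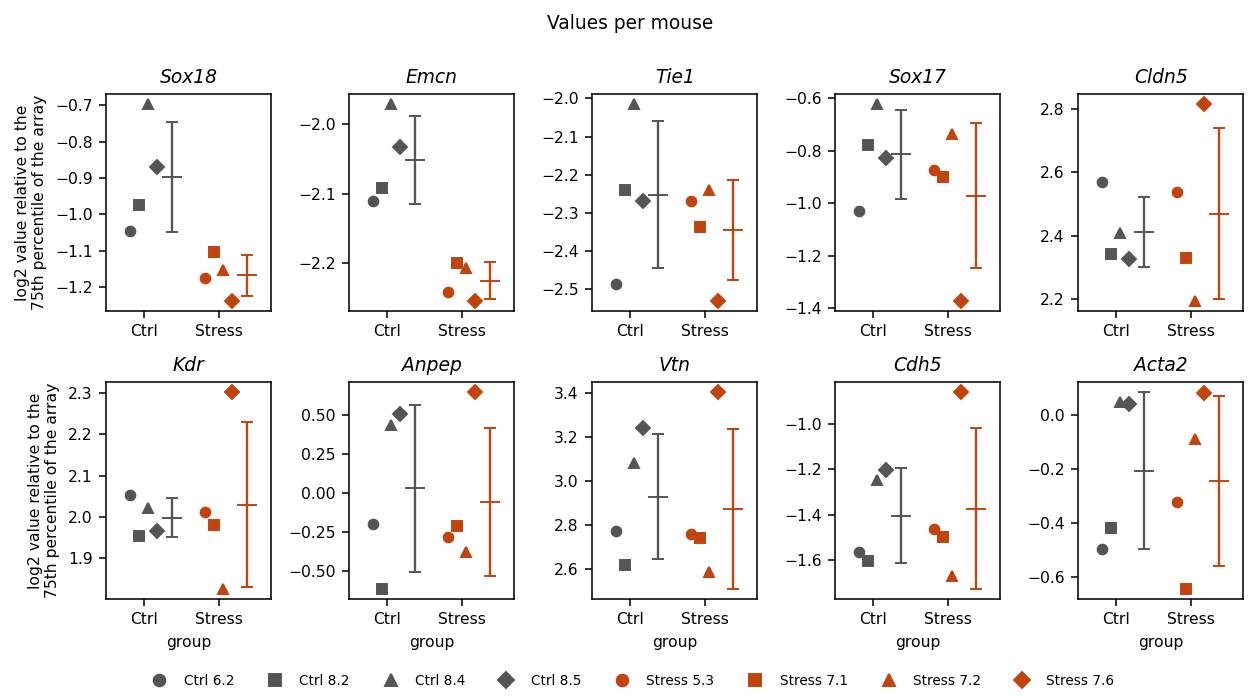
Each panel plots 1 gene, with the log2 value relative to the 75th percentile of the array for each of the 4 control and 4 MS mice. The bar beside the points is the mean with the SD. For *Sox18* and *Emcn* all MS mice lie below all controls, and in *Cldn5*, *Kdr*, *Anpep*, *Vtn*, *Cdh5* and *Acta2* the mouse Stress 7.6 is the highest of all 8.

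Among the other endothelial genes, 3 were above 0 and 2 below. *Vwf* encodes von Willebrand factor, a clotting protein stored in endothelium, and was at 1.29, 1.18, 1.68 and 1.92 in Ctrl 6.2, 8.2, 8.4 and 8.5. *Vwf* was at 0.80, 1.41, 1.41 and 1.65 in Stress 5.3, 7.1, 7.2 and 7.6. Stress 5.3 was lowest and Ctrl 8.5 highest, and the spread over the 8 mice (SD 0.34) was wider than for 92.1% of all tested genes. The log2 fold change of *Vwf* was -0.20 (SE 0.22), and its dimmer probe gave 0.16 (SE 0.21). *Ly6c1* and *Ly6a*, which encode surface proteins of the Ly6 family, *Itm2a*, a membrane protein, and *Nostrin*, a regulator of the nitric oxide synthase of endothelium, had log2 fold changes from -0.01 to 0.06. The 2 probes of *Ly6c1* moved together over the mice (r = 0.931).

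Among the pericyte genes, *Pdgfrb* encodes the receptor through which endothelial PDGF-B recruits pericytes. It was at 0.24, -0.035, 0.053 and -0.0013 in Ctrl 6.2, 8.2, 8.4 and 8.5. *Pdgfrb* was at 0.039, -0.083, -0.032 and 0.11 in Stress 5.3, 7.1, 7.2 and 7.6. Ctrl 6.2 was highest, and the other 3 controls lay between the lowest and the highest MS mouse (log2 fold change -0.06, SE 0.08). *Abcc9*, a subunit of the potassium channels of pericytes that respond to ATP, had the largest change of this role at 0.11 (SE 0.10). It was at -1.90, -1.64, -1.80 and -1.96 in Ctrl 6.2, 8.2, 8.4 and 8.5, and at -1.58, -1.93, -1.77 and -1.61 in Stress 5.3, 7.1, 7.2 and 7.6. Stress 5.3 and 7.6 were above every control and Stress 7.1 was near the lowest. *Rgs5*, a regulator of G protein signaling in pericytes, differed by 0.03 (SE 0.08).

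*Anpep* encodes aminopeptidase N (CD13), an enzyme on pericytes that fibroblasts and myeloid cells also carry, and it had the widest spread of all 36 genes. It was at -0.20, -0.62, 0.43 and 0.50 in Ctrl 6.2, 8.2, 8.4 and 8.5. *Anpep* was at -0.28, -0.22, -0.38 and 0.64 in Stress 5.3, 7.1, 7.2 and 7.6. In both groups some mice were high and some low, and the high ones were Ctrl 8.4, Ctrl 8.5 and Stress 7.6. The SD over the 8 mice was 0.47, wider than for 95.6% of all tested genes, while the groups differed by -0.09 (SE 0.31). *Vtn*, which encodes the matrix protein vitronectin, had the same 3 highest mice, at 3.08, 3.24 and 3.40, with the other 5 between 2.59 and 2.77 and a difference between groups of -0.06 (SE 0.20).

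Of the 3 smooth muscle genes, *Myh11*, the myosin heavy chain of contractile smooth muscle, had the largest change of all 36 genes on this scale. It was at -4.00, -4.04, -3.91 and -3.61 in Ctrl 6.2, 8.2, 8.4 and 8.5. *Myh11* was at -4.18, -4.42, -3.78 and -4.32 in Stress 5.3, 7.1, 7.2 and 7.6. Of the MS mice, 5.3, 7.1 and 7.6 lay below every control and 7.2 lay above all but 1 of them. *Myh11* differed by -0.29 (SE 0.15, exact two-sided permutation p = 0.143). Nearly all of this came from row 2 of the slide, where it was -0.57, against -0.0065 in row 1. With normexp background correction the change of *Myh11* was -0.053, smaller than that of *Sox18* (-0.22).

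*Acta2* encodes the actin of smooth muscle that arteriolar cells use to contract. It was at -0.50, -0.42, 0.051 and 0.040 in Ctrl 6.2, 8.2, 8.4 and 8.5. In Stress 5.3, 7.1, 7.2 and 7.6 *Acta2* was at -0.32, -0.64, -0.087 and 0.082. Each group held mice near 0 and mice far below it, and the groups differed by -0.04 (SE 0.19). *Tagln*, which encodes the actin-binding protein transgelin, differed by 0.04 (SE 0.19).

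The larger differences thus lay between mice within a group. The median SD over the 8 mice was 0.146 for the 36 genes, 0.14 for the endothelial and 0.276 for the mural genes, against 0.112 over all tested genes, and 26 of the 36 lay above the median gene. The score of a gene group, the mean over its genes of the log2 value minus its mean over the 8 mice, gives these differences per mouse. The score of the 8 mural genes was -0.096, -0.16, 0.12 and 0.22 in Ctrl 6.2, 8.2, 8.4 and 8.5. In Stress 5.3, 7.1, 7.2 and 7.6 it was -0.066, -0.22, -0.043 and 0.24. Mice at both ends of the range were found in each group. The score of the 28 endothelial genes spanned a narrower range, from -0.050 to 0.097 in control and from -0.093 to 0.078 in MS mice.

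**Figure D3:**
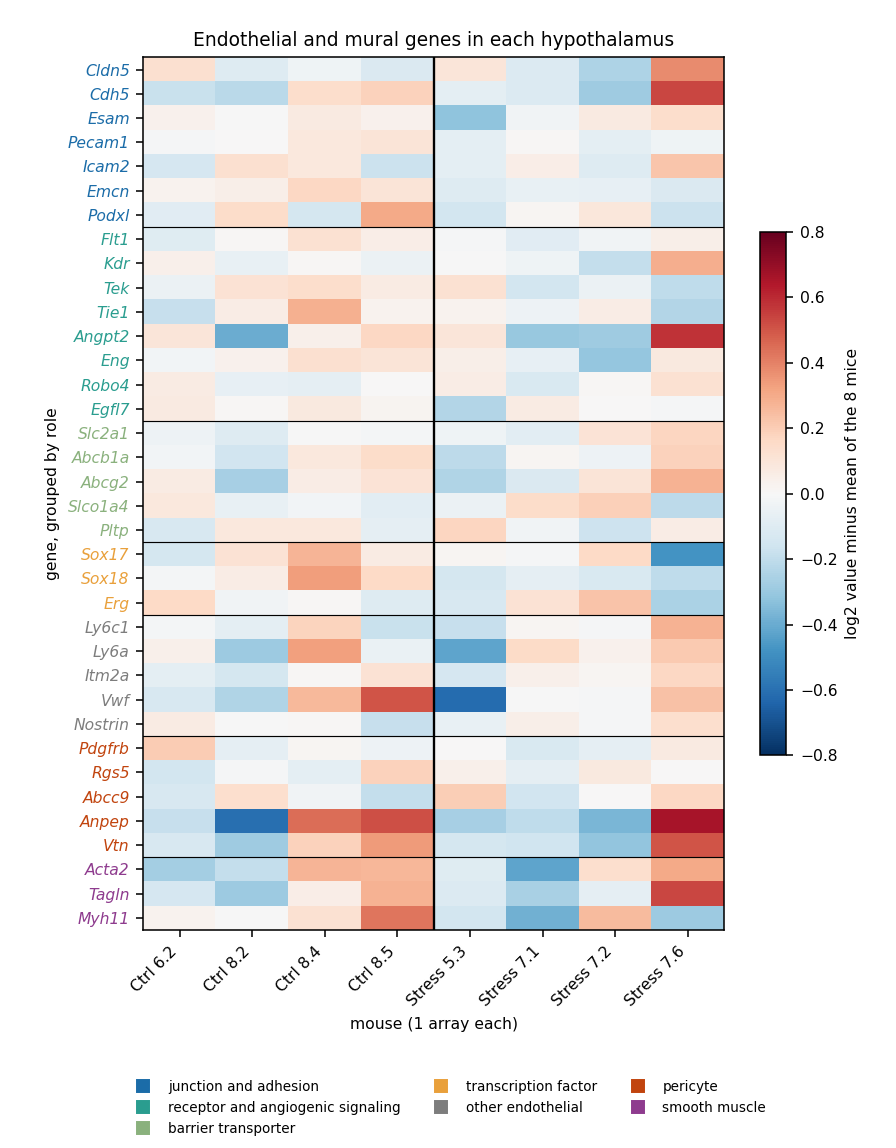
Rows are the 36 genes in order of role and columns are the 8 mice, with the groups parted by the vertical line. Color gives the log2 value of a gene in a mouse minus the mean of the 8 mice. *Anpep*, *Vtn*, *Cdh5*, *Tagln* and *Angpt2* are above their mean in Ctrl 8.4, Ctrl 8.5 and Stress 7.6, and no column pattern parts the groups.

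Pairs of vessel genes were loosely correlated over the mice. Over the 378 pairs of endothelial genes the median Pearson's r was 0.146, and over the 28 pairs of mural genes it was 0.222. Over the 224 pairs of 1 endothelial and 1 mural gene it was 0.177, against 0.015 over all pairs of 16589 genes with a value on every array. Of the pairs among the 36 genes, 9.8% had r above 0.7, against 4.6% of all pairs. With the group means removed these medians were 0.154, 0.235, 0.189 and 0.017. All of these correlations rest on 8 mice that share arrays and a normalization, and they are given as a description.

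The pair with the highest r of all 630 was *Emcn* and *Sox18* (r = 0.980, Spearman's rho = 1), so that the 8 mice fell in the same order for both genes. With the group means removed r was 0.983. *Pecam1* also followed *Sox18* (r = 0.867), which with the group means removed was 0.70. *Tie1* and *Sox17* formed another pair (r = 0.909), as did *Cldn5* and *Kdr* (r = 0.951), and these pairs ran against each other: *Cldn5* had r = -0.842 with *Sox17* and -0.629 with *Tie1*, and *Kdr* had -0.840 and -0.575. In Stress 7.6, *Cldn5* and the brighter *Kdr* probe were at their highest, and *Tie1* and the brighter *Sox17* probe at their lowest. Without Stress 7.6 and Ctrl 8.5 these values were -0.557 and -0.346 for *Cldn5* and -0.402 and -0.168 for *Kdr*. The opposition was thus weaker without these mice but kept its sign. The *Kdr* and *Sox17* values are those of their brighter probes. The other *Kdr* probe did not follow its pair, and the other *Sox17* probe did so only loosely (r = 0.31). On that dimmer *Sox17* probe Stress 5.3 was lowest at -1.64, and Stress 7.6 was at -1.48.

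Another set joined the compartments. *Anpep* and *Vtn* had r = 0.971, *Cdh5* and *Vtn* r = 0.972, *Cdh5* and *Anpep* r = 0.920, and without Stress 7.6 and Ctrl 8.5 these were 0.955, 0.965 and 0.893. *Tagln* followed all of them (r = 0.897 to 0.926), less so without these mice (0.577 to 0.780). *Slco1a4* and *Erg* moved together (r = 0.955, and 0.902 without these mice), although *Erg* was dim. Both ran against *Cdh5* with r = -0.793, which without these mice was -0.461 for *Slco1a4* and -0.462 for *Erg*. The barrier pump *Abcb1a* went with *Itm2a* (r = 0.930) and with the brighter probe of *Vwf* (r = 0.926). The 2 probes of *Vwf* had r = 0.322 with each other.

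**Figure D4:**
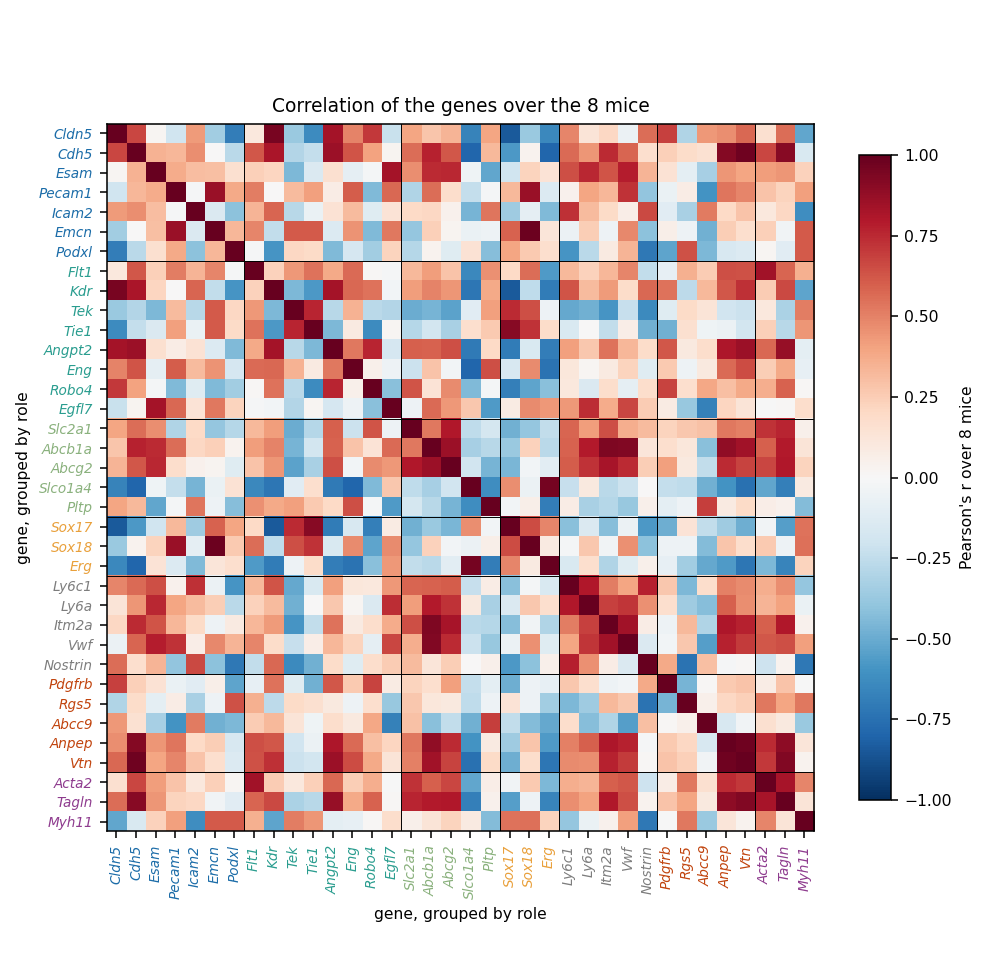
The matrix gives Pearson's r over the 8 mice for each pair of the 36 genes, in order of role, with red for positive and blue for negative r. *Emcn* with *Sox18* (0.980) and *Anpep* with *Vtn* (0.971) are among the strongest pairs, and the brighter probe of *Sox17* runs against *Cldn5* (-0.842).

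The promoters of *Emcn*, *Anpep* and *Vtn* are shown because *Emcn* was 1 of the 2 separated genes and *Anpep* and *Vtn* were the mural pair with the highest r. The sequences are the 250 bases upstream of the annotated start, from RefSeq on GRCm38.p6, where 23 of the 36 genes had an entry. Capitals mark matches, on either strand, to ACAAT, a core that SOX factors bind, or to GGAAGT, a core that ETS factors bind. These motifs share no overlap here.
*Emcn* promoter, chr3:137340828-137341077, plus strand: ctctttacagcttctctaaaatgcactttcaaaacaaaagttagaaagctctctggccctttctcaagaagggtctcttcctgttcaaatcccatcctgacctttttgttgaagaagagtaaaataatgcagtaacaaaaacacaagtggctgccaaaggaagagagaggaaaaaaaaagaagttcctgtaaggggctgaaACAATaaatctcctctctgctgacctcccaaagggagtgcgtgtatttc
*Anpep* promoter, chr7:79848211-79848460, minus strand: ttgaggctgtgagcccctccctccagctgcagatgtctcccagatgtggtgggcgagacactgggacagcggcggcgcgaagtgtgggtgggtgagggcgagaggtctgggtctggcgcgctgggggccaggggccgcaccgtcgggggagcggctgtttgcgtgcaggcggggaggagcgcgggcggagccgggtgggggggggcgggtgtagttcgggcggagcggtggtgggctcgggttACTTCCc
*Vtn* promoter, chr11:78498870-78499119, plus strand: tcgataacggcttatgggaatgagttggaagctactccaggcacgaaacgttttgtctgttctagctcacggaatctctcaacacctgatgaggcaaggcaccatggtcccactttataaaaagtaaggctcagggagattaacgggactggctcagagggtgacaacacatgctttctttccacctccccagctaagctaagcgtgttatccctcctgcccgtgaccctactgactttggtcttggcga
ACAAT was found in 6 of the 23 promoters (*Emcn*, *Tek*, *Robo4*, *Abcg2*, *Slco1a4* and *Rgs5*), against 28.3% of all 27025 promoters of this length. GGAAGT was found in 8 of the 23 (*Flt1*, *Kdr*, *Tie1*, *Eng*, *Egfl7*, *Abcg2*, *Nostrin* and *Anpep*), against 20.0% of all promoters. A match to such short letters is a description of the sequence, and binding was not measured.

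Among scores of other cell markers over all 8 mice, fibroblasts and meninges and microglia and macrophages had the highest r with the endothelial and mural scores. For the other marker lists, r with the endothelial score ran from -0.2 (choroid plexus) to 0.464 (hypothalamus). With the mural score it ran from -0.572 (blood) to 0.685 (ependyma and tanycytes). This order did not hold without Stress 7.6 and Ctrl 8.5. The oligodendrocyte score then had r = 0.876 with the endothelial score, from -0.085 over the 8 mice, and was the highest. With the mural score it had 0.469, from -0.525, above microglia and macrophages (0.377) and below fibroblasts and meninges (0.713). The 10 markers of fibroblasts and meninges, such as the collagens *Col1a1*, *Col1a2* and *Col3a1* and the meningeal transporters *Slc6a13* and *Slc22a6*, had a score from -0.73 to 0.69 in control and from -0.54 to 0.82 in MS mice. This score followed that of the pericyte genes (r = 0.946, rho = 0.952, and r = 0.872 without Stress 7.6 and Ctrl 8.5). With the smooth muscle genes r was 0.721 (rho = 0.762, and 0.422 without these mice), and with the endothelial genes 0.828 (rho = 0.786, and 0.75 without them). *Anpep* (r = 0.963) and *Vtn* (r = 0.958) followed it most closely of all 36 genes. *Cdh5* (r = 0.884), *Tagln* (r = 0.894) and *Angpt2* (r = 0.881) came next, whereas r was 0.475 for *Pdgfrb*, 0.154 for *Rgs5* and -0.189 for *Abcc9*. Without Stress 7.6 and Ctrl 8.5 these last values were 0.652, -0.632 and -0.389, so that the place of *Pdgfrb* and *Rgs5* depended on these mice. Its highest mice were again Stress 7.6, Ctrl 8.5 and Ctrl 8.4.

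**Figure D5:**
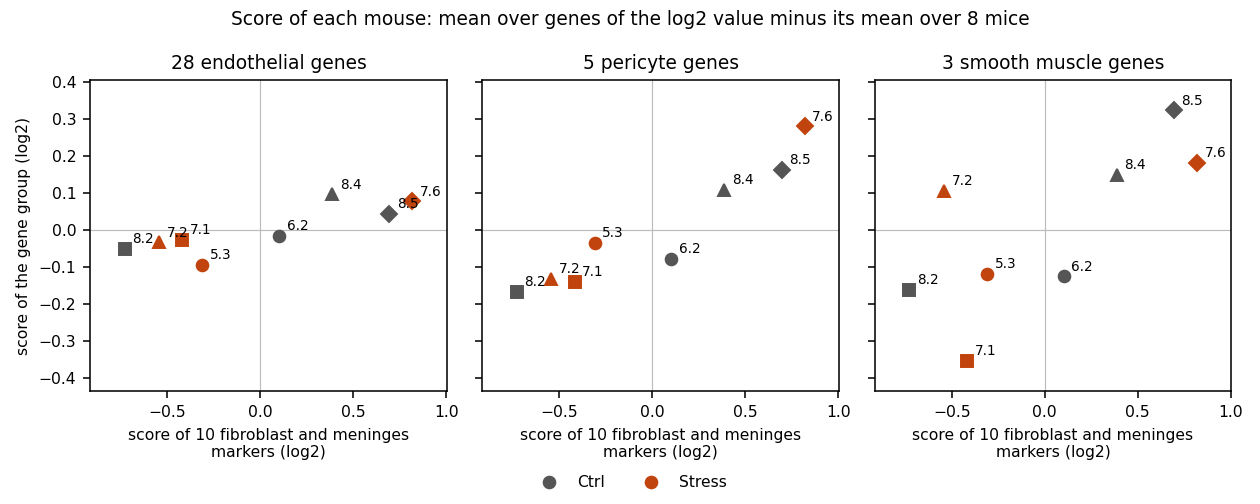
Each point is a mouse, named by its number, with the score of the 10 fibroblast and meninges markers on the horizontal axis and the score of the endothelial, pericyte or smooth muscle genes on the vertical axis, both in log2 units. Stress 7.6 and Ctrl 8.5 lie at the upper right of the pericyte panel, and each group holds mice at both ends.

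All 10 fibroblast and meninges markers had a log2 fold change below 0 (median -0.216) with 0 at an adjusted p under 0.05 in limma, and their confidence intervals were wide (1 of 10 within a 1.5-fold change). The score of the 9 tested markers of microglia and macrophages also moved with the vessel genes. Its r was 0.822 against the endothelial score and 0.764 against the mural score. Without Stress 7.6 and Ctrl 8.5 these were 0.745 and 0.377, so that the relation to the mural genes rested largely on these mice. The single markers did not all move alike: in Stress 7.6 *Mrc1* was at its highest (-1.54) and *Cx3cr1* at its lowest (2.27). *Abcb1a* (r = 0.968) and *Itm2a* (r = 0.904) followed the microglia score most closely. The 75th percentile of the signal ran against the pericyte score (r = -0.797, and -0.399 without Stress 7.6 and Ctrl 8.5), and Stress 7.6 had the dimmest array. The part of other cell types and of the brightness of the array in the spread of the vessel genes was not tested.

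Genes of the same pathways outside the set were read from the same fit. Of 103 such genes 99 were tested, and 0 had an adjusted p under 0.05 in limma. Their median log2 fold change was -0.027, with 39 above 0 and 60 below. Over all 16593 genes the median was 0.008, with 8914 above and 7679 below. The split of the 99 depended on the scaling. It was 45 above and 54 below with median scaling and 46 and 53 with normexp background correction. With quantile normalization it was 41 and 58, and in the authors' table, which held fewer of them, 35 and 59. At an unadjusted p under 0.05, 1 was higher and 2 were lower in MS mice, against 2.62% of all 16593 genes in either direction. Without overlap 1 was higher and 3 were lower, against 1.77% of all genes, and counts this small cannot be set apart from these shares. The genes among them are given with their values only. The 11 growth factors and ligands, which include *Vegfa*, *Angpt1* and *Pdgfb*, held none of these.

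Of the 20 tested mural genes outside the set, 15 were below 0 and 5 above, or 10 on each side with normexp background correction. *Agtr1a*, the receptor of angiotensin II that constricts vessels and that neurons of the hypothalamus also carry, was lower in every MS mouse than in every control. It was at -1.45, -1.82, -1.71 and -1.5 in Ctrl 6.2, 8.2, 8.4 and 8.5, and at -2.01, -1.85, -2.01 and -1.83 in Stress 5.3, 7.1, 7.2 and 7.6. The log2 fold change of *Agtr1a* was -0.31 (SE 0.10), with an unadjusted p of 0.0123 and an adjusted p of 0.989 in limma.

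Among the 14 genes of Notch signaling and arterial or venous identity, *Hey2*, a Notch target of arteries, differed by 0.24 (SE 0.09) with groups that overlapped, at an unadjusted p of 0.0337 and an adjusted p of 0.989 in limma. *Jag2*, a Notch ligand, differed by -0.11 (SE 0.06), and its groups did not overlap. Of the 11 genes of the Wnt pathway that maintains the barrier, *Ndp*, which encodes the ligand norrin, differed by 0.18 (SE 0.08) and *Apcdd1*, an inhibitor that the pathway induces in endothelium, by -0.33 (SE 0.15). The groups overlapped for neither gene, and the adjusted p of both was 0.989 in limma. Among 26 further endothelial genes, *Gata2*, a transcription factor of endothelium and of some neurons, differed by -0.43 (SE 0.18) with groups that overlapped, at an unadjusted p of 0.0436 and an adjusted p of 0.989 in limma. None of the 17 genes of tight junctions, carriers and transcytosis was at an unadjusted p under 0.05 or without overlap.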

How the data were processed

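Arrays of 8 hypothalami were used, 4 labelled Ctrl and 4 labelled Stress. What the authors deposited for each array is the scanner file, with the intensity of every spot after background subtraction by Agilent Feature Extraction 10.10.1.1. Their table of log2 values per probe, also deposited and credited to limma in the submitters' notes, served as an alternative, since nothing read here states its normalization.

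Without control spots and outlier spots, log2 intensities were averaged to 55681 probes and scaled by subtracting the 75th percentile of each array. A probe was tested if it was well above background on 4 or more of the 8 arrays. The test was lmFit and eBayes of limma 3.58.1 in R 4.3.3, two-sided, with Benjamini-Hochberg adjustment at 0.05, after a trial on simulated data. The brightest tested probe stood for a gene, and 18 tested probes had no value on some array. All arrays lay on 1 slide, in 2 rows that each held both groups.

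Values per mouse are given for *Cldn5*, *Pecam1*, *Kdr*, *Slc2a1*, *Pdgfrb* and *Acta2*, for genes at an unadjusted p under 0.05 or without overlap, for the largest change in each role and for the 2 genes with the largest SD. *Vtn* and *Sox17* were added after their values had been seen. The genes, their roles and the lists were chosen with earlier results of these data known. Other scalings, background corrections, filters, variance models, blocks and sets of mice were tried as alternatives.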

Additional observations from a re-analysis of the deposited data

Results flagged for a closer look

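Among the 36 genes in both groups, plus the scores of the gene groups, 2 of 80 sets of 4 mice held a mouse far from the other 3, where chance flags about 1 in 20. *Abcg2*, the efflux pump BCRP, was at 1.36 in Ctrl 8.2 and at 1.69 to 1.74 in the other controls, a gap of 0.876 of the range of the group. *Anpep* was at 0.64 in Stress 7.6 and at -0.38 to -0.22 in the other MS mice, a gap of 0.841 of the range. Stress 7.6 had the dimmest array and the highest score of fibroblast and meninges markers (0.82), and the part of either in its *Anpep* value was not tested.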

How the results depend on the processing

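No paired analysis was possible because the labels give the groups no shared replicate numbers. In none of 24 alternatives did a probe of the 36 genes have an adjusted p under 0.05 in limma, and the smallest was 0.419, with a random block for the leading digit of the mouse number. Over all probes the count rose from 0 to 1 in slide row 2 alone and to 1 with that random block. Of the 36 genes, 12 kept the sign of their log2 fold change in every one of up to 23 alternatives, *Sox18* (-0.33 to -0.20) and *Emcn* (-0.19 to -0.09) among them. As the groups of these 2 genes did not overlap, leaving out mice or taking 1 slide row could not turn their sign. The unadjusted limma p of *Sox18* stayed under 0.05 in 21 of these 23, and was 0.163 in slide row 2 alone and 0.0542 without Stress 7.6 and Ctrl 8.5. That of *Emcn* stayed so in 19, and was 0.0886 and 0.216 in the slide rows alone, 0.191 with normexp background correction and 0.0988 in the authors' table. The median log2 fold change of the endothelial genes was -0.0909 in slide row 1 alone, against -0.016. Leaving out each mouse in turn gave -0.075 to 0.020 for this median and -0.136 to 0.054 for that of the mural genes. The median r over pairs of endothelial genes, 0.146, moved to 0.269 with normexp background correction and to 0.212 without Stress 7.6 and Ctrl 8.5, and leaving out single mice gave 0.116 to 0.18, or 0.151 to 0.375 for mural pairs. The cause of these moves was not tested. The number of arrays, 4 per group, limits the precision, and signal over background limits *Erg*, which was above background on 6 of 8 arrays. In the other alternatives the count over all probes was 0.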
